A study of Mus musculus with 9 samples.

Results

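The 42 genes described here encode enzymes and carriers of fatty acid oxidation and classical targets of the nuclear receptor PPAR alpha. They were chosen by gene symbol from mitochondrial and peroxisomal oxidation, ketogenesis and known receptor targets. The rule itself used no measured value, but earlier results of these data were known when the genes were chosen. All 42 were among the 28956 entries of the mouse liver count table, and all 42 were among the 17582 genes that passed the filter on low counts and were tested.

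Liver RNA was sequenced 24 h after acetaminophen (APAP), an analgesic that damages hepatocytes at high dose. All mice were of the C57BL6J strain, 8 weeks old, and all received 300 mg/kg APAP by intraperitoneal injection in saline. In the APAP_MSC group, 500000 cells labelled MSC were given intravenously 90 min after APAP. In the APAP_HDF group, the same number of cells labelled HDF was given at the same time, and the APAP group received no cells. The labels do not expand MSC or HDF, abbreviations in common use for mesenchymal stromal cells and for fibroblasts of human skin. Each group had 3 libraries, and livers without APAP were not analysed here, so the comparisons are among APAP-treated livers only. The labels do not say that the libraries of a group came from separate animals, so the p-values rest on the spread among these 9 libraries alone, and that spread may be technical.

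PPAR alpha is activated by fatty acids and binds DNA together with the receptor RXR. In liver its target genes cover the uptake of fatty acids, their activation and transfer into mitochondria and peroxisomes, their shortening by beta-oxidation, their omega-hydroxylation by cytochrome P450 enzymes of the Cyp4a family, and the formation of ketone bodies. The set is best known from fasting, when the liver turns from glucose to fat as fuel.

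Total counts per library were between 53267000 and 63176000, and 3 counts, used as the floor of detection for counting error only, corresponded to 0.0453 to 0.0567 CPM (counts scaled to library size). The library sizes used for CPM were corrected by the trimmed mean of M values, and gene lengths were not used, so levels of different genes are not compared. The labels name the cell type as hepatocytes, but the RNA came from a piece of whole liver. A list of 11 detected hepatocyte markers summed to 116523 to 131161 CPM in APAP_MSC livers, 109206 to 139530 CPM in APAP_HDF livers and 111695 to 135272 CPM in APAP livers. Alb alone gave 62366 to 86006 CPM of these sums. Taken per marker, as log2 CPM minus the marker's mean over the 9 libraries, the list averaged 0.04 to 0.14 in APAP_MSC livers. It averaged -0.27 to 0.07 in APAP_HDF livers and -0.13 to 0.005 in APAP livers. For 4 of the 11 markers (36.4%) all APAP_MSC libraries lay above all APAP libraries, beside 13.7% of all tested genes. Markers of monocytes and macrophages (13 genes) summed to 190 to 225 CPM in APAP_MSC livers, 196 to 252 CPM in APAP_HDF livers and 260 to 362 CPM in APAP livers, so RNA of other cells was present and its amount differed with the groups. In such bulk samples, fewer cells of a type and less RNA per cell cannot be told apart.

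With MSC, Decr2 and Acaa1a, which act in peroxisomal oxidation, rose relative to APAP alone, while the fatty acid transporter Cd36 and the lipase inhibitor Angptl4 fell. These were 4 of the 42 genes (9.52%), against 6.19% of all tested genes that passed the edgeR quasi-likelihood test at a Benjamini-Hochberg adjusted p under 0.05 in APAP_MSC against APAP livers, 2.68% higher and 3.51% lower. The log2 fold change of APAP_MSC over APAP was positive for 29 of the 42 genes (69%), beside 48.9% of all tested genes. Its median was 0.18 over the 42 genes, -0.01 over all tested genes and 0.18 over the 11 hepatocyte markers. Of those markers, 6 had a positive value and 5 a negative one, and 36.4% were higher in APAP_MSC than in APAP livers without overlap. All 3 APAP_MSC libraries lay above all 3 APAP libraries for 14 of the 42 genes (33.3%; 13.7% of all tested genes) and below them for 2 genes (4.76%; 14.7% of all tested genes). The count of 4 was 0 without APAP_MSC library 1 or 2, 2 without APAP_MSC library 3 or APAP library 1, and 10 without APAP_HDF library 1. Leaving out APAP library 2 gave a median of 0.12 over the 42 genes, and leaving out APAP library 3 gave 0.29.

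With HDF, none of the 42 genes passed the test against APAP alone, and neither did any other tested gene (0%). The smallest edgeR adjusted p among the 42 was 0.525, for the thioesterase Acot2. At an unadjusted p under 0.05 there were 10 of the 42 genes, beside 8.29% of all tested genes, DESeq2 called Acot2 alone among the 42 and 83 of all genes, and limma-voom called none. The log2 fold change of APAP_HDF over APAP was positive for 38 of the 42 genes (90.5%), beside 49.1% of all tested genes. The 42 genes varied together between libraries, as given below, so their signs are not independent of each other. The median log2 fold change was 0.28 over the 42 genes, beside -0.0044 over all tested genes. Over the 42 genes it was 0.14 without APAP_HDF library 3, 0.18 without APAP library 2, 0.39 without APAP_HDF library 1 and 0.42 without APAP library 3. The APAP_HDF libraries lay above all APAP libraries for 5 genes (5.66% of all tested genes did) and below them for 2 genes (6.08% of all tested genes did).

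Between the cell-treated groups, 8 of the 42 genes (19%) passed the test, against 8.79% of all tested genes, 4.78% higher and 4% lower. Decr2, Acaa1a and Hadh were higher in APAP_MSC than in APAP_HDF livers. The carnitine palmitoyltransferase Cpt1a, Angptl4 and the omega-hydroxylases Cyp4a10, Cyp4a31 and Cyp4a32 were lower in APAP_MSC than in APAP_HDF livers. The median log2 fold change of APAP_MSC over APAP_HDF was -0.17 over the 42 genes and -0.02 over all tested genes, and it was 0.02 over the 42 genes without APAP_HDF library 3. The APAP_MSC libraries lay above all APAP_HDF libraries for 7 genes (16.8% of all tested genes did) and below them for 10 genes (16.4% of all tested genes did). The count of 8 was 1 without APAP_MSC library 2, 4 without APAP_MSC library 1 or 3 or APAP_HDF library 2 or 3, and 5 without APAP_HDF library 1, whose removal gave a median of -0.26. The comparisons share libraries, so their values are given side by side and are not independent of each other.

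**Figure D1:**
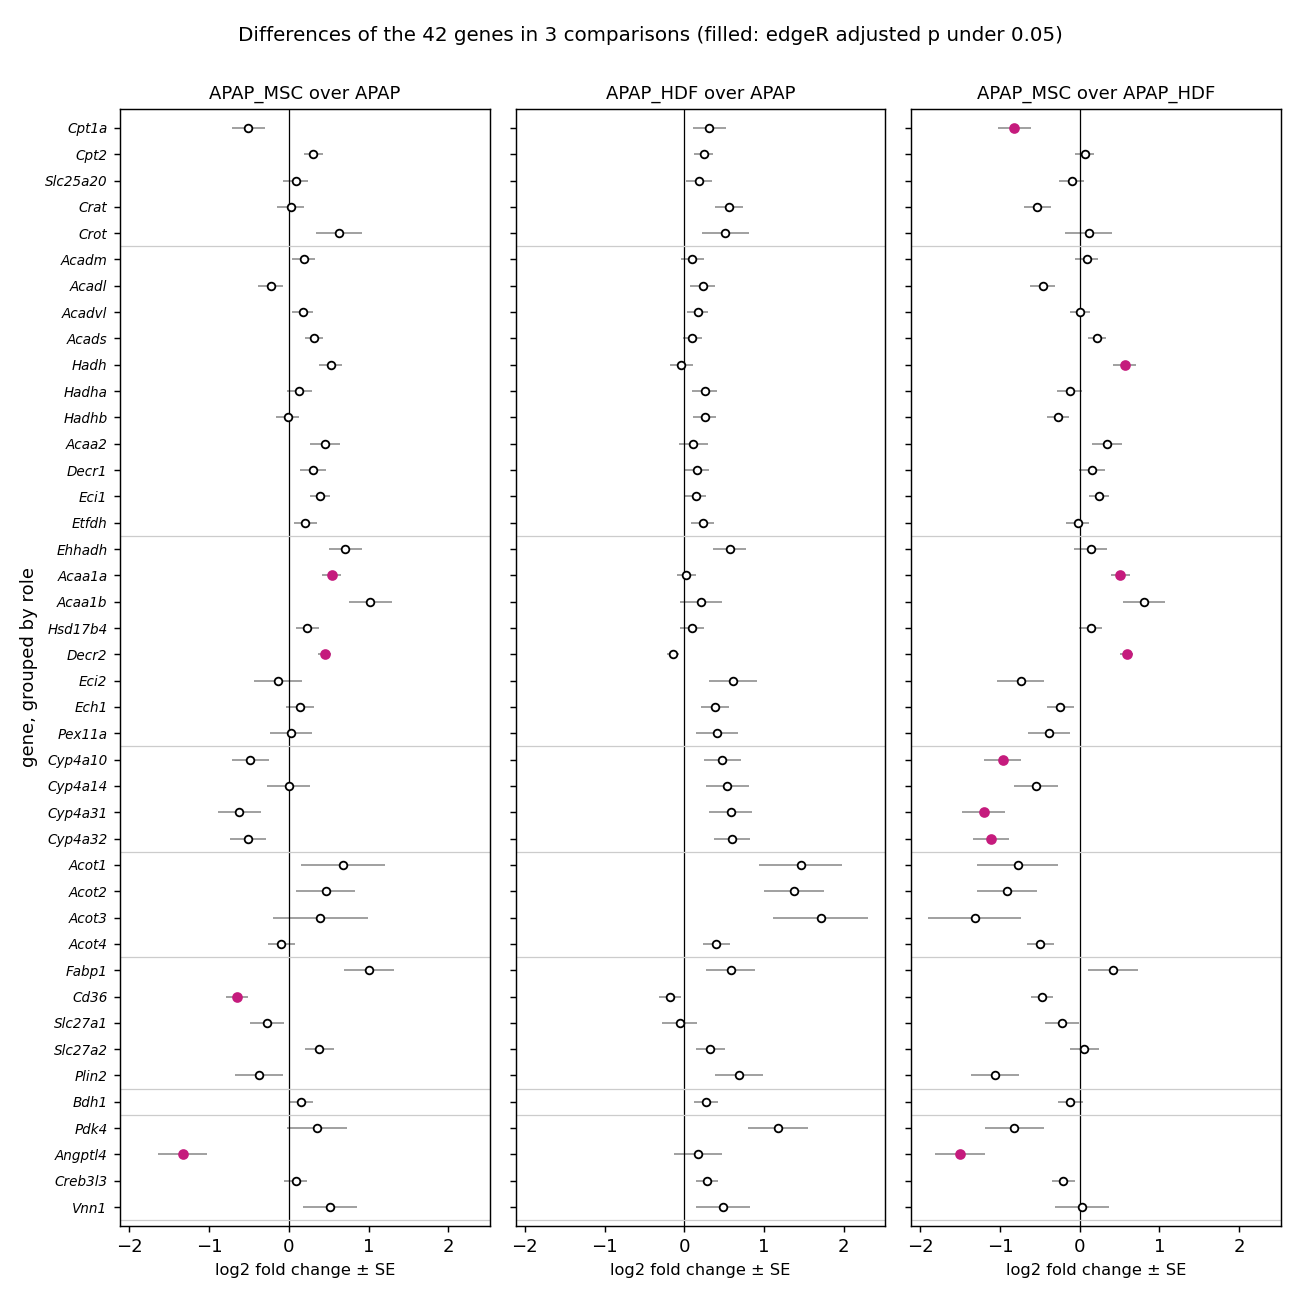
Log2 fold changes with their standard errors (horizontal axis) for the 42 genes, grouped by role down the page, in APAP_MSC over APAP, APAP_HDF over APAP and APAP_MSC over APAP_HDF; filled points passed the edgeR test at an adjusted p under 0.05. The filled points number 4 in the left panel, 0 in the middle panel and 8 in the right panel, where 5 of the 8 lie below 0.

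The promoters of 4 genes are shown because PPAR alpha acts on its targets through DNA elements. Fabp1 is shown because its window alone, among the 33 of the 42 genes with a window, held the receptor's motif. Decr2 and Acaa1a are examples of genes that rose in APAP_MSC against APAP livers. Cyp4a32 is an example of a gene that passed the test only as lower in APAP_MSC than in APAP_HDF livers. The last 3 are among the 6 of the 42 genes (14.3%) that passed the test of both group terms together, against 6.79% of all tested genes; the others are Hadh, Angptl4 and Cd36. Sequences are from RefSeq, build GRCm38.p6, 5′ to 3′ on the gene's strand, covering the 250 bases before the gene's start. They are chr6:71199629-71199878 on the plus strand for Fabp1, chr4:115600688-115600937 on the plus strand for Cyp4a32, chr9:119341044-119341293 on the plus strand for Acaa1a and chr17:26090165-26090414 on the minus strand for Decr2. Capitals mark matches to the motifs searched.
Fabp1: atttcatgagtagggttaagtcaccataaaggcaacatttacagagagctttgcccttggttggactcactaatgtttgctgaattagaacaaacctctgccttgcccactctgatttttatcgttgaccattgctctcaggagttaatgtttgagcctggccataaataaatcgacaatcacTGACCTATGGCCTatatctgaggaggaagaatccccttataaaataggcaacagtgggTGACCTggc
Cyp4a32: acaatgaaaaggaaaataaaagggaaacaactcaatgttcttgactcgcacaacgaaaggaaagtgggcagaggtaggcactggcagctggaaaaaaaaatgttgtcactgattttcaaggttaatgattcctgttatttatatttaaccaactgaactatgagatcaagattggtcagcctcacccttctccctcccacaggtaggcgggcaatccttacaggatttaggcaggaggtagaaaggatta
Acaa1a: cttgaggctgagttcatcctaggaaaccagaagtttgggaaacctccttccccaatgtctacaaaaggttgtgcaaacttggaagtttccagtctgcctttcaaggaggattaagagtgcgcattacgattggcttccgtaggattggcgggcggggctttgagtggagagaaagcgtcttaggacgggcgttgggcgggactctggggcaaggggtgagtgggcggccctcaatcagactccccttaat
Decr2: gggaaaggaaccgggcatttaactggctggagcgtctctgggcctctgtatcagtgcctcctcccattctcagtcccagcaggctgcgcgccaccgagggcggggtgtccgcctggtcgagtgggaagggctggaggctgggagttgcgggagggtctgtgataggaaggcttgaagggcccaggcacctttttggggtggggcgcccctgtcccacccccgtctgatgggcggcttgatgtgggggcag

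The search covered both strands of these bases and the next 50, in the 33 of the 42 genes that had a window. The direct repeat AGGNCANAGGNCA, to which PPAR and RXR bind as a pair, was found in 1 of 33 windows, that of Fabp1, and in 0.451% of the 27025 genes with a window. In Fabp1 it reads TGACCTATGGCCT on the gene's strand and begins 67 bases before the start. The single element AGGTCA, which also lies inside that repeat, was found in 10 of 33 genes (30.3%), against 18.1% of all genes. These are Acadm, Acadvl, Acot3, Acot4, Cd36, Cpt1a, Creb3l3, Fabp1, Plin2 and Slc27a2. Fabp1 has another copy that begins 9 bases before its start, and the windows of Cyp4a32, Acaa1a and Decr2 hold neither motif. A match is a description of these letters and not a binding site, and receptor elements are often far from the start.

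Peroxisomal oxidation shortens very long and branched fatty acids and produces hydrogen peroxide. Of its 8 genes, 2 rose and none fell in APAP_MSC against APAP livers, none passed the test in APAP_HDF against APAP livers, and 2 were higher and none lower in APAP_MSC than in APAP_HDF livers. Beside this and the counts of the other roles, 2.68% of all tested genes rose and 3.51% fell in APAP_MSC against APAP livers, and 4.78% were higher and 4% lower in APAP_MSC than in APAP_HDF livers. Decr2 is the peroxisomal 2,4-dienoyl-CoA reductase, which prepares unsaturated fatty acids for oxidation. Decr2 was at 83.3, 82.1 and 83.0 CPM in APAP_MSC livers, 55.7, 55.5 and 54.1 CPM in APAP_HDF livers and 62.7, 59.7 and 59.8 CPM in APAP livers. The libraries of each group lay within a narrow range and the 3 groups did not overlap, with APAP_MSC highest and APAP_HDF lowest. Decr2 had a log2 fold change of 0.45 ± 0.08 (SE) for APAP_MSC over APAP (edgeR adjusted p = 0.0139) and 0.59 ± 0.08 for APAP_MSC over APAP_HDF (adjusted p = 0.00254). For APAP_HDF over APAP it was -0.14 ± 0.08 (adjusted p = 0.652). The call against APAP was lost without APAP_MSC library 1 or 2 (largest adjusted p 0.0681), and the call against APAP_HDF held whichever of the 9 libraries was left out.

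Acaa1a and Acaa1b encode peroxisomal 3-ketoacyl-CoA thiolases, which carry out the last step of each cycle. Acaa1a was at 120, 123 and 121 CPM in APAP_MSC livers, 69.8, 87.6 and 98.6 CPM in APAP_HDF livers and 80.3, 87.5 and 83.4 CPM in APAP livers. The APAP_MSC libraries were above all others, and the APAP_HDF and APAP libraries overlapped. On the log2 scale the fold change was 0.54 ± 0.12 for APAP_MSC over APAP (adjusted p = 0.0262), 0.51 ± 0.12 for APAP_MSC over APAP_HDF (adjusted p = 0.0242) and 0.03 ± 0.12 for APAP_HDF over APAP (adjusted p = 0.97). The call against APAP was lost without any 1 of the APAP_MSC or APAP libraries (largest adjusted p 0.111), and the call against APAP_HDF without any 1 of the APAP_MSC libraries or APAP_HDF library 2 (largest adjusted p 0.0972). Acaa1b was at 143, 167 and 230 CPM in APAP_MSC livers, 69.2, 111 and 129 CPM in APAP_HDF livers and 69.9, 82.4 and 115 CPM in APAP livers. All APAP_MSC libraries were above all others for Acaa1b too, but they spread more widely, and the log2 fold change over APAP of 1.02 ± 0.27 did not pass (adjusted p = 0.0571), nor did that over APAP_HDF of 0.81 ± 0.27 (adjusted p = 0.095). Of the windows of 50 bases in the longest GENCODE M21 transcript, 34% in Acaa1a and 35.5% in Acaa1b also occur in the other gene, so reads between them may have been split or dropped in counting.

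Ehhadh, the peroxisomal bifunctional enzyme, was at 134, 116 and 104 CPM in APAP_MSC livers, 79.5, 104 and 138 CPM in APAP_HDF livers and 61.8, 63.7 and 91.2 CPM in APAP livers. The APAP_MSC libraries did not overlap the APAP libraries, and the log2 fold change was 0.71 ± 0.21 (adjusted p = 0.0732). That of APAP_HDF over APAP was 0.57 ± 0.21 (adjusted p = 0.575), with overlap. Hsd17b4, the other bifunctional enzyme, averaged 281 ± 23.5 CPM in APAP_MSC livers, 256 ± 40.3 CPM in APAP_HDF livers and 240 ± 34.3 CPM in APAP livers (SD, n = 3 in each group, here and below). Ech1, a dienoyl-CoA isomerase, averaged 205 ± 8.67 CPM in APAP_MSC livers, 242 ± 58.8 CPM in APAP_HDF livers and 185 ± 32.1 CPM in APAP livers. Neither of these passed the test in any comparison. Eci2, an enoyl-CoA isomerase, averaged 70.7 ± 2.48 CPM in APAP_MSC livers, 118 ± 47.4 CPM in APAP_HDF livers and 77.4 ± 24.8 CPM in APAP livers. Pex11a, which takes part in peroxisome division, averaged 51.2 ± 9.6 CPM in APAP_MSC livers, 66.9 ± 25.9 CPM in APAP_HDF livers and 50.4 ± 9.51 CPM in APAP livers. For both, APAP_HDF library 3 was the highest of all 9 libraries, at 165 CPM for Eci2 and 95.2 CPM for Pex11a, and neither passed the test.

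Mitochondrial beta-oxidation, with 11 genes, breaks down most long and medium-chain fatty acids. None of the 11 passed the test in APAP_MSC against APAP or in APAP_HDF against APAP livers, and 1, Hadh, was higher in APAP_MSC than in APAP_HDF livers. Hadh, the short-chain 3-hydroxyacyl-CoA dehydrogenase, was at 221, 231 and 250 CPM in APAP_MSC livers, 130, 181 and 163 CPM in APAP_HDF livers and 191, 143 and 154 CPM in APAP livers. All APAP_MSC libraries were above all others. Hadh had a log2 fold change of 0.57 ± 0.14 for APAP_MSC over APAP_HDF (adjusted p = 0.0341) and 0.53 ± 0.14 for APAP_MSC over APAP (adjusted p = 0.0536), while that of APAP_HDF over APAP was -0.04 ± 0.14 (adjusted p = 0.96). The call against APAP_HDF was lost without any 1 of the APAP_MSC libraries or without APAP_HDF library 1 or 3 (largest adjusted p 0.118).

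Among the acyl-CoA dehydrogenases, which open each cycle, the short-chain enzyme Acads averaged 126 ± 4.28 CPM in APAP_MSC livers, 108 ± 16.5 CPM in APAP_HDF livers and 101 ± 5.35 CPM in APAP livers. The medium-chain enzyme Acadm averaged 244 ± 19.9 CPM in APAP_MSC livers, 230 ± 43.8 CPM in APAP_HDF livers and 214 ± 18.7 CPM in APAP livers. The APAP_MSC libraries of both genes lay above all APAP libraries. The long-chain enzyme Acadl averaged 184 ± 0.723 CPM in APAP_MSC livers, 254 ± 33.6 CPM in APAP_HDF livers and 216 ± 49.1 CPM in APAP livers, so it was the dehydrogenase of this set with its APAP_MSC mean below the other means. The very long-chain enzyme Acadvl averaged 178 ± 12.7 CPM in APAP_MSC livers, 178 ± 25.4 CPM in APAP_HDF livers and 158 ± 17.7 CPM in APAP livers. None of the 4 passed the test in any comparison.

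Hadha and Hadhb form the trifunctional protein, which carries the later steps for long chains. Hadha averaged 327 ± 16.9 CPM in APAP_MSC livers, 357 ± 72.7 CPM in APAP_HDF livers and 299 ± 45.5 CPM in APAP livers. Hadhb averaged 104 ± 2.75 CPM in APAP_MSC livers, 125 ± 25.6 CPM in APAP_HDF livers and 105 ± 11.5 CPM in APAP livers. All groups overlapped for both subunits. Acaa2, the mitochondrial thiolase, averaged 612 ± 24 CPM in APAP_MSC livers, 483 ± 133 CPM in APAP_HDF livers and 446 ± 57.2 CPM in APAP livers. Eci1, an enoyl-CoA isomerase, averaged 67.1 ± 2.11 CPM in APAP_MSC livers, 56.7 ± 11.2 CPM in APAP_HDF livers and 51.3 ± 0.652 CPM in APAP livers. For both of these, all APAP_MSC libraries were above all libraries of the other groups, without passing the test. Decr1, the mitochondrial dienoyl-CoA reductase, averaged 107 ± 1.54 CPM in APAP_MSC livers, 96.7 ± 20.6 CPM in APAP_HDF livers and 86.9 ± 15.7 CPM in APAP livers. Etfdh, which passes the electrons to the respiratory chain, averaged 160 ± 11.9 CPM in APAP_MSC livers, 163 ± 27.8 CPM in APAP_HDF livers and 139 ± 18.6 CPM in APAP livers.

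**Figure D2:**
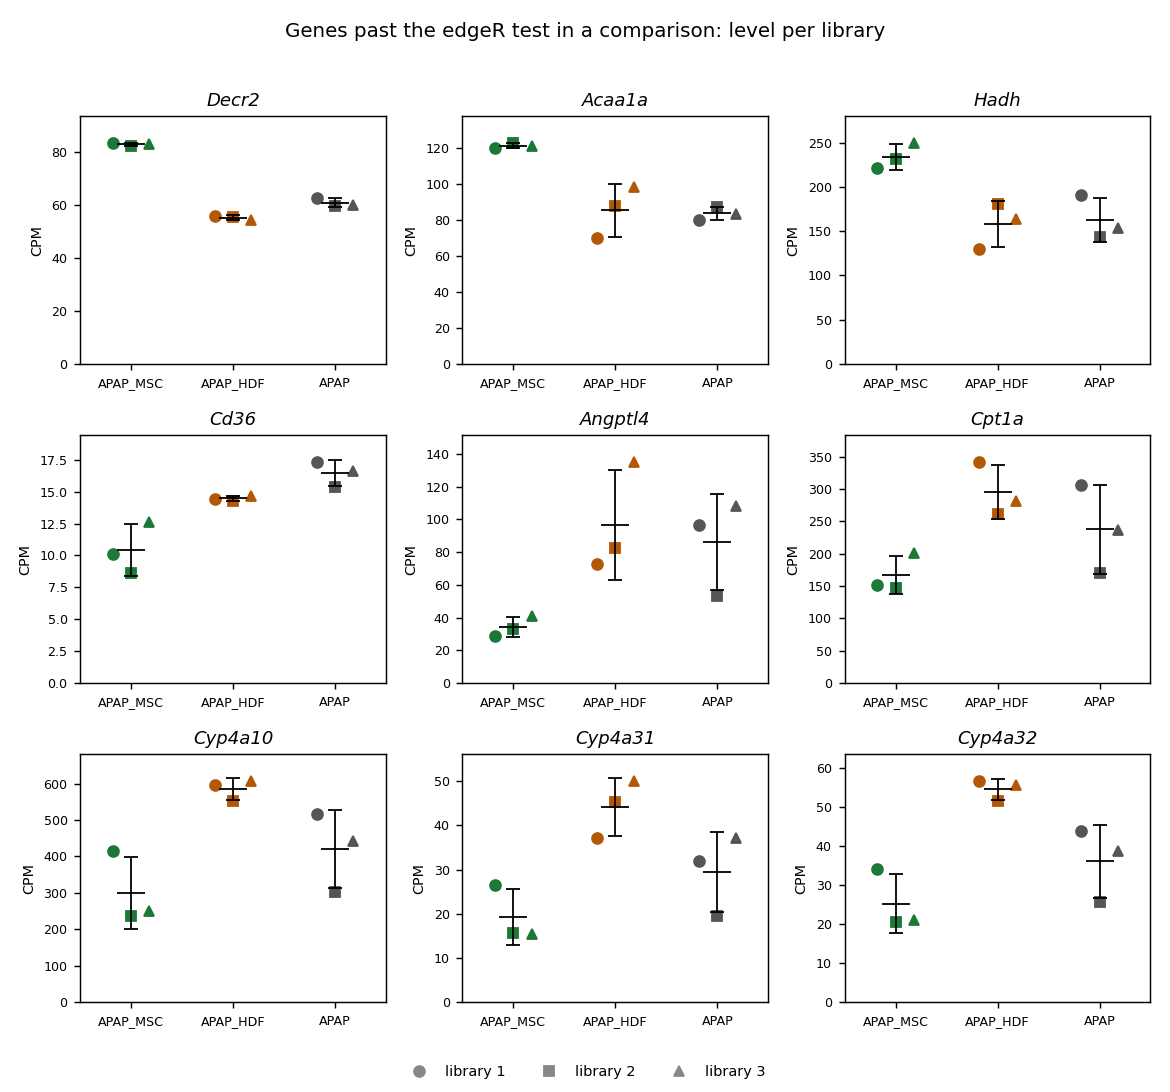
CPM in each library (points, with a symbol for each library number) and the mean with its SD (bars) in the APAP_MSC, APAP_HDF and APAP groups, for the 9 genes that passed the edgeR test in at least 1 comparison of 2 groups. Decr2 lies between 82.1 and 83.3 CPM in APAP_MSC livers, above all other libraries, and Angptl4 between 28.7 and 40.6 CPM, below all other libraries.

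The carnitine shuttle brings fatty acids into mitochondria as carnitine esters, and its 5 genes had 1 call, Cpt1a in APAP_MSC against APAP_HDF livers. Cpt1a, the rate-limiting carnitine palmitoyltransferase, was at 152, 147 and 201 CPM in APAP_MSC livers, 342, 261 and 282 CPM in APAP_HDF livers and 306, 169 and 237 CPM in APAP livers. The APAP_MSC libraries were below all APAP_HDF libraries, and the APAP libraries overlapped both groups. Cpt1a had a log2 fold change of -0.82 ± 0.21 for APAP_MSC over APAP_HDF (adjusted p = 0.0341), -0.51 ± 0.21 for APAP_MSC over APAP (adjusted p = 0.17) and 0.31 ± 0.21 for APAP_HDF over APAP (adjusted p = 0.696). The call was lost without APAP_MSC library 1 or 2 or any 1 APAP_HDF library (largest adjusted p 0.161), and with no filter on low counts (0.0647). Crat, the carnitine acetyltransferase, was at 56.6, 67.3 and 69.0 CPM in APAP_MSC livers, 69.1, 101 and 110 CPM in APAP_HDF livers and 66.1, 52.6 and 70.8 CPM in APAP livers. APAP_HDF libraries 2 and 3 stood above all other libraries. Crat had a log2 fold change of 0.56 ± 0.17 for APAP_HDF over APAP (adjusted p = 0.535) and -0.53 ± 0.17 for APAP_MSC over APAP_HDF (adjusted p = 0.0743).

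Of the other carriers, Cpt2, the inner-membrane palmitoyltransferase, averaged 101 ± 2.02 CPM in APAP_MSC livers, 96.6 ± 10.8 CPM in APAP_HDF livers and 81.6 ± 11.7 CPM in APAP livers. Crot, the peroxisomal octanoyltransferase, averaged 301 ± 29.1 CPM in APAP_MSC livers, 278 ± 105 CPM in APAP_HDF livers and 195 ± 55.7 CPM in APAP livers. For both, all APAP_MSC libraries were above all APAP libraries, without passing the test. Slc25a20, the carnitine-acylcarnitine translocase, averaged 75.2 ± 4.74 CPM in APAP_MSC livers, 80.7 ± 15.9 CPM in APAP_HDF livers and 70.9 ± 12.7 CPM in APAP livers. Bdh1, which makes the ketone body 3-hydroxybutyrate, averaged 252 ± 13 CPM in APAP_MSC livers, 274 ± 39 CPM in APAP_HDF livers and 227 ± 46 CPM in APAP livers. Groups overlapped for Slc25a20 and Bdh1, and neither passed the test.

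The 4 Cyp4a genes encode omega-hydroxylases, which oxidize the far end of fatty acids and are among the most inducible PPAR alpha targets in mouse liver. In the RefSeq annotation of GRCm38.p6 they lie beside each other on chromosome 4 in the order Cyp4a14, Cyp4a10, Cyp4a31, Cyp4a32. None passed the test in APAP_MSC against APAP or in APAP_HDF against APAP livers, and 3 of 4 were lower in APAP_MSC than in APAP_HDF livers. Cyp4a10 was at 414, 237 and 249 CPM in APAP_MSC livers, 595, 552 and 607 CPM in APAP_HDF livers and 515, 303 and 441 CPM in APAP livers. Cyp4a31 was at 26.5, 15.7 and 15.4 CPM in APAP_MSC livers, 37.2, 45.4 and 50.1 CPM in APAP_HDF livers and 32.0, 19.5 and 37.1 CPM in APAP livers. Cyp4a32 was at 34.0, 20.6 and 21.1 CPM in APAP_MSC livers, 56.6, 51.4 and 55.5 CPM in APAP_HDF livers and 43.8, 25.7 and 38.7 CPM in APAP livers. In all 3 genes every APAP_HDF library was above every other library, for Cyp4a31 by a narrow margin over APAP library 3, APAP_MSC library 1 was above the other APAP_MSC libraries, and APAP library 2 was the lowest of its group.

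The log2 fold change of APAP_MSC over APAP_HDF was -0.96 ± 0.23 for Cyp4a10 (adjusted p = 0.0311), -1.20 ± 0.27 for Cyp4a31 (adjusted p = 0.0284) and -1.11 ± 0.22 for Cyp4a32 (adjusted p = 0.0168). For APAP_HDF over APAP the same genes had 0.48 ± 0.23, 0.58 ± 0.27 and 0.60 ± 0.22 (adjusted p = 0.616, 0.607 and 0.58). For APAP_MSC over APAP they had -0.48 ± 0.23, -0.62 ± 0.27 and -0.52 ± 0.22 (adjusted p = 0.247, 0.21 and 0.205). The calls were lost without APAP_MSC library 2 or 3 or APAP_HDF library 1 in all 3 genes, and without APAP_HDF library 2 or 3 in Cyp4a10 and Cyp4a31, with largest adjusted p of 0.146, 0.124 and 0.0875. With no filter on low counts, Cyp4a10 and Cyp4a31 did not pass (adjusted p = 0.089 and 0.0996). Cyp4a14 was at 951, 616 and 670 CPM in APAP_MSC livers, 868, 1107 and 1289 CPM in APAP_HDF livers and 759, 467 and 1017 CPM in APAP livers. Its groups overlapped, with log2 fold changes of 0.54 ± 0.27 for APAP_HDF over APAP (adjusted p = 0.629) and -0.54 ± 0.27 for APAP_MSC over APAP_HDF (adjusted p = 0.246). Of the transcript windows of 50 bases, 46.8% in Cyp4a32, 30.5% in Cyp4a10 and 20.1% in Cyp4a31 occur in another gene of the 4, and 0% in Cyp4a14, so the 3 called genes are not independent measurements.

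Acyl-CoA thioesterases release free fatty acids from acyl-CoA. Acot2 is mitochondrial, Acot1 cytosolic, and Acot3 and Acot4 peroxisomal, and the 4 genes stand beside each other on chromosome 12. None passed the test in any comparison. Acot1 was at 4.48, 3.44 and 5.29 CPM in APAP_MSC livers, 3.08, 5.56 and 14.1 CPM in APAP_HDF livers and 1.68, 2.61 and 3.94 CPM in APAP livers. Acot2 was at 7.59, 4.46 and 10.7 CPM in APAP_MSC livers, 8.01, 13.2 and 21.6 CPM in APAP_HDF livers and 5.52, 5.92 and 5.09 CPM in APAP livers. Acot3 was at 1.55, 1.25 and 2.45 CPM in APAP_MSC livers, 1.78, 3.62 and 7.73 CPM in APAP_HDF livers and 0.794, 0.784 and 2.38 CPM in APAP livers. In all 3, APAP_HDF library 3 was the highest of the 9 libraries and APAP_HDF library 1 the lowest of its group. For Acot2 all APAP_HDF libraries were above all APAP libraries, and for Acot1 and Acot3 these groups overlapped.

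The log2 fold change of APAP_HDF over APAP was 1.37 ± 0.38 for Acot2 (adjusted p = 0.525), 1.71 ± 0.60 for Acot3 (adjusted p = 0.575) and 1.46 ± 0.52 for Acot1 (adjusted p = 0.575). For APAP_MSC over APAP they were 0.46 ± 0.37, 0.39 ± 0.60 and 0.68 ± 0.52 (adjusted p = 0.527, 0.759 and 0.503). Acot4 was at 22.6, 27.7 and 27.2 CPM in APAP_MSC livers, 31.5, 34.8 and 42.9 CPM in APAP_HDF livers and 21.5, 27.0 and 34.1 CPM in APAP livers. The APAP_HDF libraries of Acot4 were above all APAP_MSC libraries, with a log2 fold change of APAP_MSC over APAP_HDF of -0.49 ± 0.17 (adjusted p = 0.0918). Of the transcript windows of 50 bases, 30% in Acot1, 27.6% in Acot2, 6.12% in Acot3 and 3.04% in Acot4 occur in another of the 4 genes, so Acot1 and Acot2 values are uncertain where reads could be split.

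**Figure D3:**
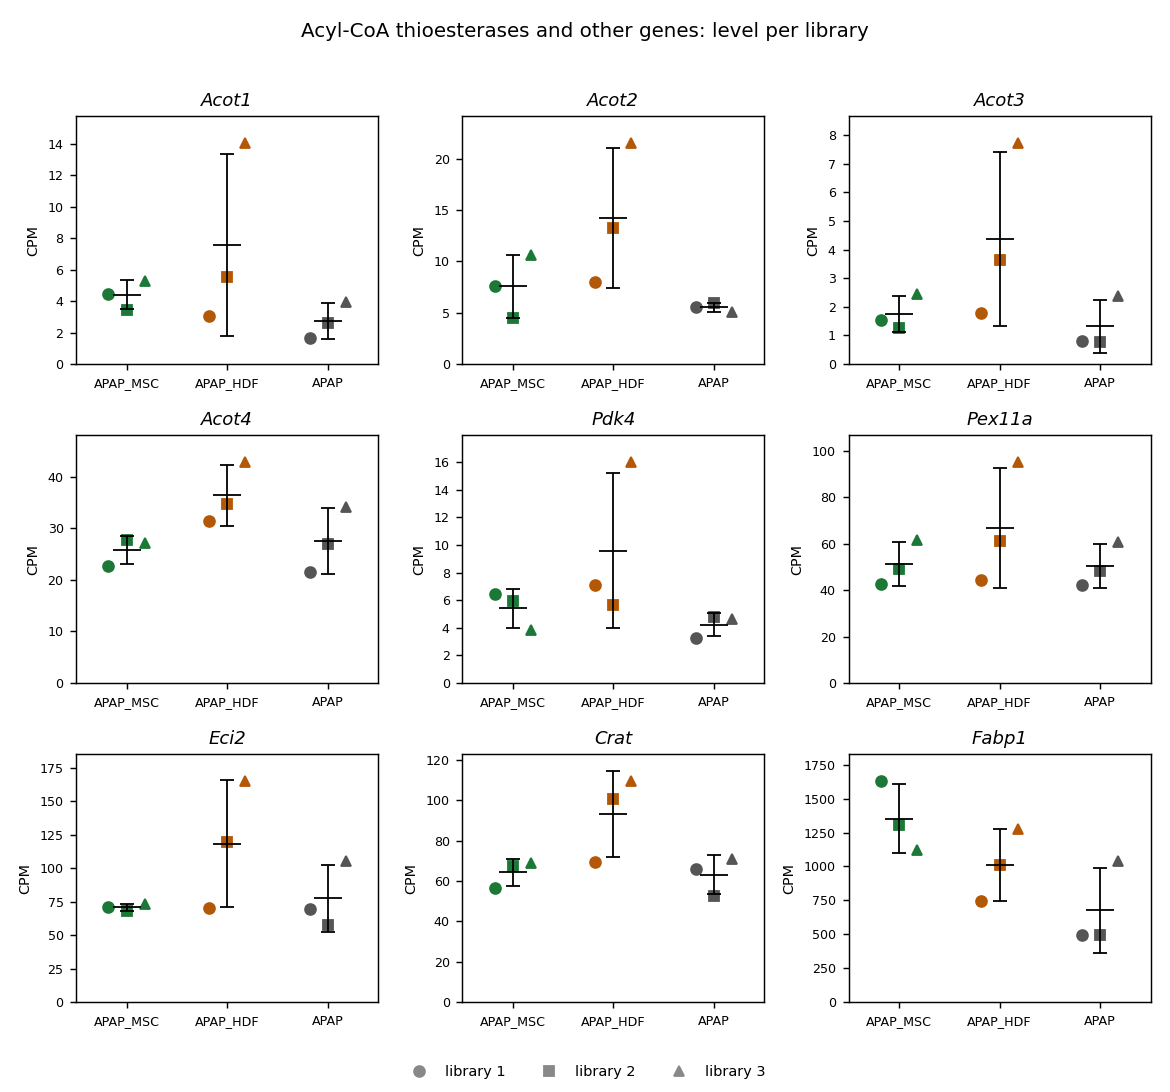
CPM in each library (points, with a symbol for each library number) and the mean with its SD (bars) in the APAP_MSC, APAP_HDF and APAP groups, for the 4 thioesterases, Pdk4, Pex11a, Eci2, Crat and Fabp1. APAP_HDF library 3 is the highest of the 9 libraries in all panels but that of Fabp1, for example at 14.1 CPM for Acot1, where the APAP_MSC libraries lie between 3.44 and 5.29 CPM. The panels were chosen with these values known and do not stand for the other genes.

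Among the 5 genes of uptake, binding and storage, 1 fell in APAP_MSC against APAP livers and none passed the other comparisons. Cd36, a membrane carrier of long-chain fatty acids that macrophages and endothelium express as well, was at 10.1, 8.59 and 12.6 CPM in APAP_MSC livers, 14.4, 14.3 and 14.7 CPM in APAP_HDF livers and 17.3, 15.4 and 16.6 CPM in APAP livers. The groups did not overlap, with APAP_MSC lowest and APAP highest. Cd36 had a log2 fold change of -0.66 ± 0.14 for APAP_MSC over APAP (adjusted p = 0.0233), -0.47 ± 0.14 for APAP_MSC over APAP_HDF (adjusted p = 0.0573) and -0.19 ± 0.14 for APAP_HDF over APAP (adjusted p = 0.729). The call was lost without APAP_MSC library 1 or 2 or APAP library 1 (largest adjusted p 0.112). Among the markers of monocytes and macrophages, 7 of 13 also fell in APAP_MSC against APAP livers, beside 3.51% of all tested genes. So did 4 of 10 markers of sinusoidal endothelium and 4 of 6 tested markers of neutrophils. None of 10 markers of Kupffer cells, the resident macrophages, passed in that comparison, with a median log2 fold change of -0.58. The neutrophil markers summed to 2.87 to 4.17 CPM in APAP_MSC livers, 3.37 to 11 CPM in APAP_HDF livers and 9.54 to 12.7 CPM in APAP livers. The endothelial markers summed to 160 to 185 CPM in APAP_MSC livers, 217 to 294 CPM in APAP_HDF livers and 221 to 326 CPM in APAP livers. Their part in the result for Cd36 was not tested.

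Fabp1, the liver fatty acid-binding protein that delivers ligands to PPAR alpha, and Plin2, which coats lipid droplets, lie outside the rule for genes named with library values and were picked once their values were known. Fabp1 was at 1631, 1305 and 1122 CPM in APAP_MSC livers, 746, 1014 and 1278 CPM in APAP_HDF livers and 494, 494 and 1039 CPM in APAP livers. All APAP_MSC libraries were above all APAP libraries, and the log2 fold change of 1.0 ± 0.31 did not pass (adjusted p = 0.0884). APAP library 3 was well above the other APAP libraries, and without it the log2 fold change of Fabp1 was 1.46 (adjusted p = 0.0145), the only one of the 9 fits with 1 library left out in which it passed. Without APAP_MSC library 1, APAP library 1 or APAP library 2 it was 0.85, 0.84 and 0.83 (adjusted p = 0.229, 0.212 and 0.194). Plin2 was at 459, 375 and 364 CPM in APAP_MSC livers, 1036, 609 and 851 CPM in APAP_HDF livers and 408, 350 and 796 CPM in APAP livers. The APAP_HDF libraries were above all APAP_MSC libraries, with a log2 fold change of APAP_MSC over APAP_HDF of -1.06 ± 0.30 (adjusted p = 0.059). Slc27a2, a very long-chain acyl-CoA synthetase and transporter, averaged 516 ± 20.6 CPM in APAP_MSC livers, 496 ± 108 CPM in APAP_HDF livers and 397 ± 85.5 CPM in APAP livers. Slc27a1, a related transporter, averaged 4.22 ± 0.636 CPM in APAP_MSC livers, 4.92 ± 0.95 CPM in APAP_HDF livers and 5.12 ± 1.1 CPM in APAP livers. Neither passed the test in any comparison.

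The last 4 genes are a secreted regulator, a kinase, a transcription factor and an ectoenzyme. Angptl4, a secreted inhibitor of lipoprotein lipase induced by fatty acids through PPAR receptors, was at 28.7, 33.2 and 40.6 CPM in APAP_MSC livers, 72.4, 82.7 and 135 CPM in APAP_HDF livers and 96.8, 53.0 and 108 CPM in APAP livers. Every APAP_MSC library was below every other library, and the APAP_HDF and APAP libraries overlapped. Angptl4 had a log2 fold change of -1.33 ± 0.31 for APAP_MSC over APAP (adjusted p = 0.0403), -1.5 ± 0.31 for APAP_MSC over APAP_HDF (adjusted p = 0.0216) and 0.17 ± 0.30 for APAP_HDF over APAP (adjusted p = 0.911). The call against APAP was lost without any 1 of the APAP_MSC libraries, APAP_HDF library 2, APAP library 1 or APAP library 3 (largest adjusted p 0.146), and the call against APAP_HDF without APAP_MSC library 1 or 2 (largest adjusted p 0.0897). With no filter on low counts neither call held (adjusted p = 0.127 and 0.0773). Angptl4 is also made by adipocytes, and of the 7 adipocyte markers only Fabp4 and Cidec were expressed enough to be tested, while Adipoq, Plin1, Retn and Lep lay at 0 to 0.0373 CPM and Cfd at 0 to 0.106 CPM. Cidec and Fabp4, which macrophages and endothelium express as well, fell in APAP_MSC against APAP livers. Together they summed to 17.8 to 27.6 CPM in APAP_MSC livers, 30.7 to 56.2 CPM in APAP_HDF livers and 44.6 to 52.5 CPM in APAP livers. The part of adipocytes in the result for Angptl4 was not tested.

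Pdk4, the kinase that turns off pyruvate dehydrogenase when fat is burned, was at 6.46, 5.95 and 3.82 CPM in APAP_MSC livers, 7.06, 5.64 and 16.0 CPM in APAP_HDF livers and 3.28, 4.76 and 4.66 CPM in APAP livers. All APAP_HDF libraries were above all APAP libraries, library 3 by far the most, and the log2 fold change was 1.17 ± 0.37 (adjusted p = 0.566). Creb3l3, a liver transcription factor of fasting, averaged 221 ± 13.1 CPM in APAP_MSC livers, 255 ± 31.9 CPM in APAP_HDF livers and 209 ± 37.4 CPM in APAP livers. Vnn1, a pantetheinase, averaged 17.9 ± 3.3 CPM in APAP_MSC livers, 17.7 ± 7.04 CPM in APAP_HDF livers and 12.6 ± 5.09 CPM in APAP livers. Neither of these passed the test in any comparison.

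The 42 genes also varied together between the libraries of a group. APAP_HDF library 3 was the highest of its group for 36 of the 42 genes (85.7%), against 32.9% of all tested genes, and APAP_HDF library 1 was the lowest for 34 (81%), against 39.2%. In the APAP group, library 3 was the highest for 32 genes (76.2%), against 37.7% of all tested genes, and library 2 was the lowest for 29 (69%), against 29.9%. In the APAP_MSC group, library 3 was the highest for 27 genes (64.3%), against 35.3%. The ratio of the highest to the lowest library had a median over the 42 genes of 1.2 in APAP_MSC livers, 1.48 in APAP_HDF livers and 1.45 in APAP livers. It reached 2.39 for Acot2 in APAP_MSC livers, 4.56 for Acot1 in APAP_HDF livers and 3.04 for Acot3 in APAP livers.

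On the log2 scale, the median SD within a group was 0.131 for the 42 genes and 0.176 for all tested genes in APAP_MSC livers. It was 0.299 and 0.218 in APAP_HDF livers, and 0.283 and 0.230 in APAP livers. The 42 genes were thus less spread than all genes in the APAP_MSC group and more spread in the other groups. The genes compared were not matched for their level of expression. The mean level of the 42 genes, as log2 CPM relative to each gene's mean over the 9 libraries, was -0.01, -0.12 and 0.04 in APAP_MSC livers, -0.11, 0.21 and 0.51 in APAP_HDF livers and -0.22, -0.40 and 0.09 in APAP livers. APAP_HDF library 1 thus lay within the range of the APAP_MSC and APAP libraries, and APAP_HDF library 3 above all others. In the same libraries the monocyte and macrophage markers were at -0.40, -0.73 and -0.54 in APAP_MSC livers, 0.22, 0.08 and -0.22 in APAP_HDF livers and 0.40, 0.34 and 0.86 in APAP livers. Their part in the spread between libraries was not tested.

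**Figure D4:**
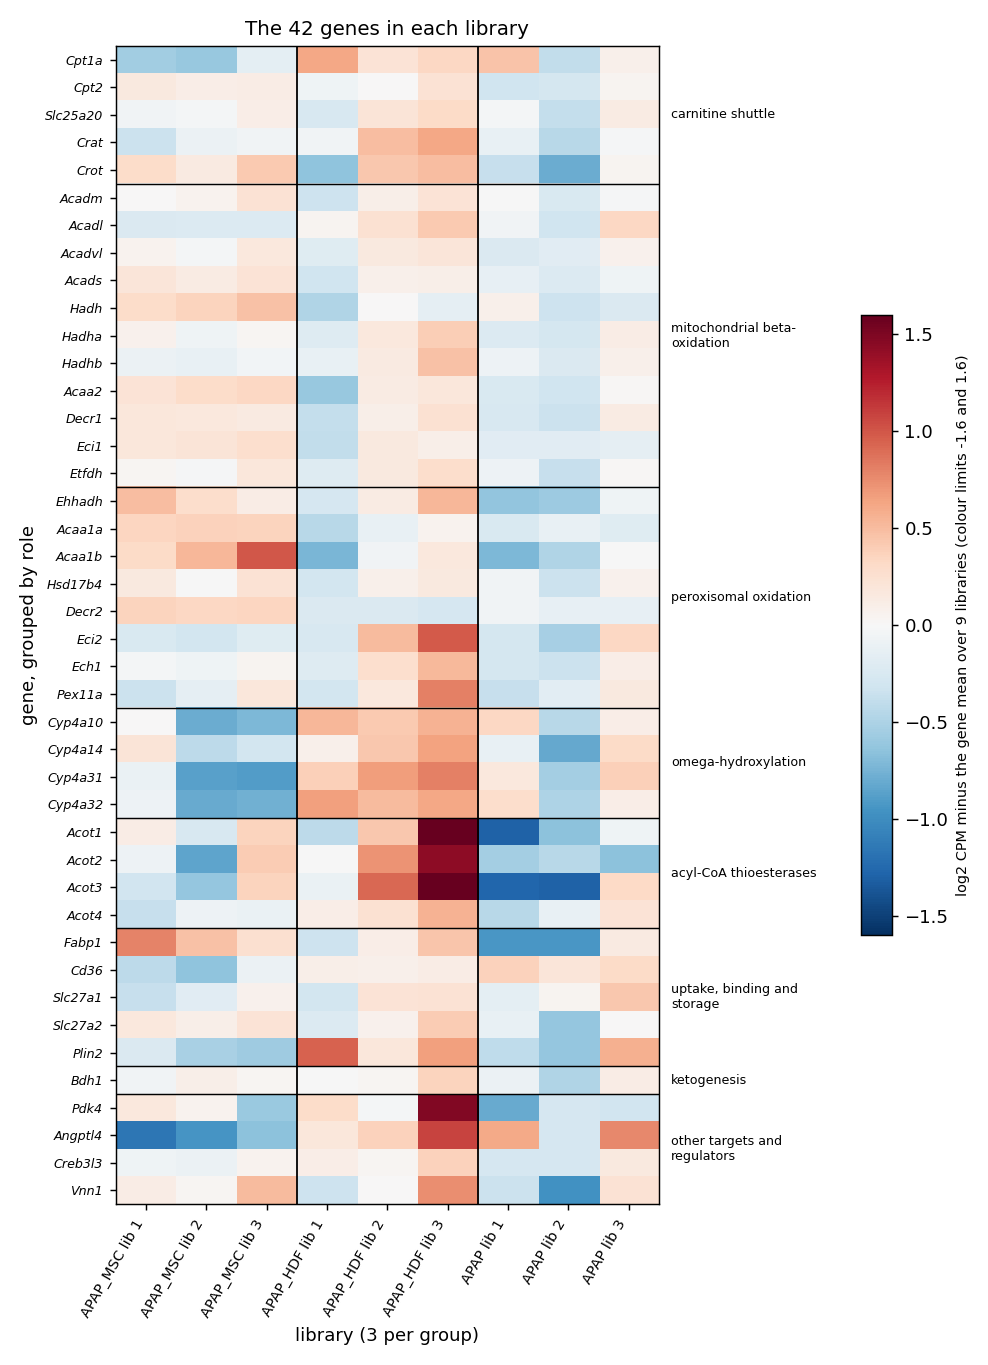
Level of each of the 42 genes (rows, grouped by role) in each library (columns, APAP_MSC, APAP_HDF and APAP from left to right), as log2 CPM relative to the gene's mean over all libraries, with colours limited to -1.6 and 1.6. APAP_HDF library 3 is the highest of its group in 36 of 42 rows and APAP library 2 the lowest of its group in 29 of 42 rows.

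By role, the peroxisomal genes averaged 0.13, 0.12 and 0.26 on that relative log2 scale in APAP_MSC livers, -0.34, 0.09 and 0.37 in APAP_HDF livers and -0.33, -0.34 and 0.03 in APAP livers. The omega-hydroxylases averaged 0.01, -0.72 and -0.67 in APAP_MSC livers, 0.41, 0.51 and 0.66 in APAP_HDF livers and 0.16, -0.58 and 0.22 in APAP livers. The mean of the peroxisomal genes was thus higher in all APAP_MSC libraries than in all APAP libraries, and that of the omega-hydroxylases higher in all APAP_HDF libraries than in all others. The mitochondrial beta-oxidation genes also averaged more in APAP_MSC (0.07 to 0.16) than in APAP libraries (-0.27 to 0.03). So did the further pathway genes described below (0.10 to 0.14 against -0.14 to -0.05) and the hepatocyte markers (0.04 to 0.14 against -0.13 to 0.005). In the other roles the APAP_MSC and APAP ranges overlapped. Taken singly, 4 of the 8 peroxisomal and 6 of the 11 mitochondrial genes were higher without overlap in APAP_MSC than in APAP livers. Over all tested genes this share was 13.7%. Eci2 had a log2 fold change of -0.13 for APAP_MSC over APAP. Of the 4 omega-hydroxylases, Cyp4a14 overlapped between APAP_HDF and the other groups. The thioesterases averaged -0.16, -0.45 and 0.25 in APAP_MSC livers, -0.11, 0.57 and 1.43 in APAP_HDF livers and -0.88, -0.62 and -0.05 in APAP livers. Their APAP_HDF and APAP ranges overlapped.

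**Figure D5:**
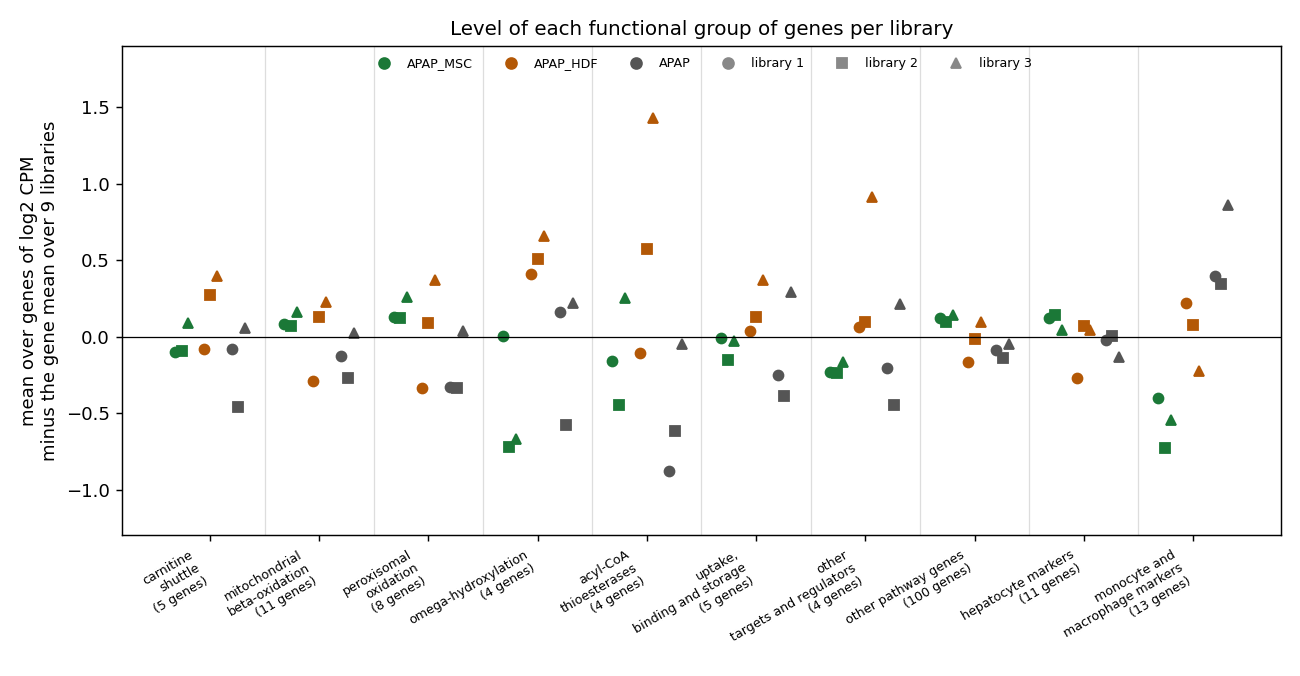
Mean over the genes of each role, and over 3 other gene lists, of log2 CPM relative to the average of the gene over all libraries (vertical axis), for each library of the APAP_MSC, APAP_HDF and APAP groups. The omega-hydroxylases of the APAP_HDF libraries lie between 0.41 and 0.66, above all other libraries, and the monocyte and macrophage markers of the APAP_MSC libraries between -0.73 and -0.40, below all other libraries.

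Beyond the 42 genes, a list of 105 further genes of the pathway was read in the same fit, of which 103 were in the table and 100 were tested. The list was chosen with earlier results of these data known, so its shares are a description and not a test of the pathway. In APAP_MSC against APAP livers 16 of the 100 rose and 2 fell, beside 2.68% and 3.51% of all tested genes, with a median log2 fold change of 0.20, beside -0.01 over all tested genes. Without APAP_MSC library 1 or 2 the number that rose was 2, without APAP_MSC library 3 or APAP library 1 it was 8, and without APAP library 2 it was 9. It was 25 without APAP_HDF library 1. The number that fell ranged from 0 without APAP_MSC library 2 to 5 without APAP_HDF library 1. None passed in APAP_HDF against APAP livers with edgeR (13 at an unadjusted p under 0.05; 2 with DESeq2), and the median was 0.04. In APAP_MSC against APAP_HDF livers 12 were higher and 5 lower, beside 4.78% and 4% of all tested genes, with a median of 0.16, beside -0.02 over all tested genes. Without APAP_MSC library 2 the numbers were 5 and 0, and without APAP_MSC library 1 they were 8 and 1. The number lower was 2 without APAP_MSC library 3 or APAP_HDF library 3, and 3 without APAP_HDF library 2. With DESeq2 they were 22 and 9. The genes that rose against APAP included the peroxisomal genes Pecr, Nudt7, Pex16 and Cat.

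Nudt7, a peroxisomal hydrolase of coenzyme A, was at 246, 158 and 133 CPM in APAP_MSC livers, 29.8, 35.5 and 35.5 CPM in APAP_HDF livers and 28.6, 36.5 and 46.2 CPM in APAP livers. Every APAP_MSC library was far above every other library, with a log2 fold change of 2.27 ± 0.24 over APAP (adjusted p = 0.0035) and 2.41 ± 0.24 over APAP_HDF (adjusted p = 0.00113). Both calls held whichever of the 9 libraries was left out. Cat, the catalase that removes hydrogen peroxide, averaged 1755 ± 33.8 CPM in APAP_MSC livers, 1081 ± 254 CPM in APAP_HDF livers and 960 ± 40.2 CPM in APAP livers, a log2 fold change of 0.87 ± 0.16 over APAP (adjusted p = 0.0162). Pex16, which inserts peroxisomal membrane proteins, averaged 63.5 ± 2.25 CPM in APAP_MSC livers, 43.6 ± 4.82 CPM in APAP_HDF livers and 43.7 ± 3.69 CPM in APAP livers, a log2 fold change of 0.54 ± 0.10 over APAP (adjusted p = 0.0176). Pecr, the peroxisomal trans-2-enoyl-CoA reductase, averaged 115 ± 11.3 CPM in APAP_MSC livers, 42.2 ± 7.42 CPM in APAP_HDF livers and 63.8 ± 15 CPM in APAP livers. For Cat, Pex16 and Pecr all APAP_MSC libraries were above all others. The calls against APAP were lost without APAP_MSC library 1 or 2 in all 3 genes, and for Pecr also without APAP library 1, with largest adjusted p of 0.0771 for Cat, 0.0897 for Pex16 and 0.106 for Pecr.

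Other pathway genes that rose against APAP were of different kinds. Cyp4f14, another omega-hydroxylase, averaged 197 ± 15.5 CPM in APAP_MSC livers, 54.8 ± 22.1 CPM in APAP_HDF livers and 58.9 ± 18.3 CPM in APAP livers, with a log2 fold change of 1.74 ± 0.32 over APAP (adjusted p = 0.021) and 1.85 ± 0.32 over APAP_HDF (adjusted p = 0.012). The call against APAP was lost without any 1 of the APAP_MSC libraries or without APAP library 1 or 2 (largest adjusted p 0.0773), and with no filter on low counts (0.059), while the call against APAP_HDF held whichever library was left out. Cyp4f14 stood higher in APAP_MSC than in APAP_HDF livers, a comparison in which Cyp4a10, Cyp4a31 and Cyp4a32 stood lower. Pdk1, a kinase related to Pdk4, averaged 40.3 ± 1.74 CPM in APAP_MSC livers, 22 ± 0.777 CPM in APAP_HDF livers and 24.2 ± 0.291 CPM in APAP livers, with a log2 fold change of 0.73 ± 0.09 over APAP (adjusted p = 0.0035). Acacb, whose product malonyl-CoA inhibits Cpt1a, was at 158, 131 and 82.3 CPM in APAP_MSC livers, 75.6, 53.8 and 73.8 CPM in APAP_HDF livers and 57.0, 50.4 and 38.1 CPM in APAP livers, and its log2 fold change over APAP was 1.35 ± 0.24 (adjusted p = 0.0176). All APAP_MSC libraries of these 3 genes were above all APAP libraries. The Pdk1 call held whichever library was left out, and the Acacb call was lost without APAP_MSC library 1 or 2 (largest adjusted p 0.0843). Ppard, the related receptor PPAR delta, averaged 30.7 ± 5.1 CPM in APAP_MSC livers, 20.9 ± 4.48 CPM in APAP_HDF livers and 15.8 ± 3.26 CPM in APAP livers, a log2 fold change of 0.95 ± 0.19 over APAP (adjusted p = 0.0188), a call that was lost without APAP_MSC library 1 or 2 or APAP library 1 (largest adjusted p 0.0946). The thioesterase Acot13 and the propionyl-CoA pathway genes Mcee and Pcca also rose, by log2 0.61 ± 0.14, 0.67 ± 0.13 and 0.41 ± 0.11 over APAP (adjusted p = 0.0307, 0.0178 and 0.0462). With 1 library left out, the Pcca call was lost in 8 of 9 fits (largest adjusted p 0.156), the Acot13 call in 5 (0.143) and the Mcee call in 2 (0.0932). The Pcca call was also lost with limma-voom and without robust moderation, with an adjusted p of up to 0.0522. Fabp4, a fatty acid-binding protein of adipocytes, macrophages and endothelium, fell to 13.6 ± 2.58 CPM in APAP_MSC livers, with 17.5 ± 2.21 CPM in APAP_HDF livers and 26.5 ± 1.18 CPM in APAP livers, a log2 fold change of -0.97 ± 0.14 over APAP (adjusted p = 0.00674), a call that was lost without APAP_MSC library 2 (adjusted p = 0.0555).

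The receptor itself did not pass the test in any comparison. Ppara was at 60.3, 58.7 and 78.2 CPM in APAP_MSC livers, 75.4, 70.6 and 88.6 CPM in APAP_HDF livers and 96.7, 64.1 and 66.5 CPM in APAP livers, and the groups overlapped. Its log2 fold change was -0.21 ± 0.17 for APAP_MSC over APAP (adjusted p = 0.533) and 0.05 ± 0.17 for APAP_HDF over APAP (adjusted p = 0.961). Its partner Rxra averaged 443 ± 57.3 CPM in APAP_MSC livers, 434 ± 47.6 CPM in APAP_HDF livers and 433 ± 17 CPM in APAP livers. The coactivator Ppargc1a averaged 8.26 ± 1.29 CPM in APAP_MSC livers, 8.28 ± 0.752 CPM in APAP_HDF livers and 8.88 ± 1.69 CPM in APAP livers. Acsl1, the main acyl-CoA synthetase of liver, averaged 507 ± 34.5 CPM in APAP_MSC livers, 393 ± 95.7 CPM in APAP_HDF livers and 340 ± 72.3 CPM in APAP livers, with a log2 fold change of 0.58 ± 0.20 for APAP_MSC over APAP (adjusted p = 0.105). All APAP_MSC libraries of Acsl1 were above all others.

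Fgf21, a hormone that the liver secretes in fasting under PPAR alpha, was at 3.14, 1.19 and 2.59 CPM in APAP_MSC livers, 5.59, 4.57 and 19.0 CPM in APAP_HDF livers and 1.14, 0.821 and 1.98 CPM in APAP livers. The APAP_HDF libraries of Fgf21 were above all others, library 3 most of all, and the log2 fold change over APAP of 2.87 ± 0.63 did not pass (adjusted p = 0.457).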

How the data were processed

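The 9 mouse liver libraries, 3 per group, were made from TRIZOL-extracted RNA with a Tecan mRNA-seq kit, per the labels' protocols. The submitters' processing notes name the tools HISAT2, Subread and DESeq2 with no version and give mm39 and GRCm39 as the builds, and strand use in counting is not given in the sources used here. The authors deposited raw counts per gene, as whole numbers. A second deposited table of normalized counts was not used here. Column headers give the group of a library but no replicate number, so library numbers follow column order within a group. Counts of libraries of a group differed by more than sampling noise (median chi-square over genes 3.07 to 8.28).

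From the raw counts, edgeR 4.0.16 in R 4.3.3 kept 17582 genes by filterByExpr with the group, holding 99.966% of counts. Factors from the trimmed mean of M values were 0.934 to 1.11. A robust quasi-likelihood model with the group as its only term was fitted to all 9 libraries (common biological coefficient of variation 0.197), and two-sided p-values were adjusted over all tested genes with the Benjamini-Hochberg method at 0.05. Standard errors are from the same fit. Levels relative to the 9 libraries are log2 CPM with a prior count of 2. The steps were tested on simulated data.

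Genes with a value in every library are those past the test in any comparison and the 6 with the smallest p per comparison, with their near-identical family members. Further pathway genes named are 12 past the test with the smallest p, and a few fixed readouts, and some of the genes that this rule takes are left out of the text. The members and lists were chosen with earlier results of these data known. Alternatives were other scalings, DESeq2 1.42.0, limma 3.58.1 with voom, other filters, fits to the compared groups alone, no robust moderation and leaving out each library. Promoters are RefSeq windows, and 9 of the 42 genes had none.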

Additional observations from a re-analysis of the deposited data

How the results depend on the processing

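No paired analysis was possible because the columns of the count table carry no replicate number that ties a library to the sample titles. Of the 42 genes, 4 passed in APAP_MSC against APAP livers, 8 with DESeq2 and 9 in the fit to the compared groups alone, and 0 to 10 with 1 library left out, which leaves fewer samples. In APAP_HDF against APAP livers 0 passed, 1 with DESeq2, and 0 with any 1 library left out. In APAP_MSC against APAP_HDF livers 8 passed, 4 with no filter on low counts and 1 to 10 with 1 library left out. The other scalings, filters and tools kept these counts within 1.5 times. Over all tested genes, DESeq2 called 2050, 83 and 2531 in APAP_MSC against APAP, APAP_HDF against APAP and APAP_MSC against APAP_HDF livers, where edgeR called 1088, 0 and 1545. Leaving out 1 library gave 87 to 1676, 0 to 31 and 324 to 1730, and dropping the filter gave 10 in APAP_HDF against APAP livers. The cause of these differences was not tested.

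Directions were compared between settings only for the genes given with a value in every library and for the further pathway genes named. Cyp4a14 in APAP_MSC over APAP, with a log2 fold change of -0.0032, was left out. The other genes of the set were not compared, so the values below are not a full account of directions that turned. Among the directions compared, each that turned belonged to a log2 fold change that did not pass the test. With 1 library left out, APAP_HDF over APAP ranged from -0.090 to 0.15 for Acaa1a, -0.15 to 0.36 for Angptl4, -0.15 to 0.094 for Hadh, -0.066 to 0.26 for Ppara, -0.24 to 0.055 for Ppargc1a and -0.072 to 0.083 for Rxra. APAP_MSC over APAP ranged from -0.23 to 0.092 for Acot4, -0.079 to 0.12 for Crat, -0.58 to 0.077 for Plin2, -0.34 to 0.026 for Ppara, -0.23 to 0.066 for Ppargc1a and -0.059 to 0.11 for Rxra. APAP_MSC over APAP_HDF ranged from -1.15 to 0.041 for Acot1 and -0.028 to 0.37 for Ehhadh. Rxra in APAP_HDF over APAP was -0.016 with upper quartile factors, -0.0015 with limma-voom and -0.0020 with no filter or with a filter at a mean of 1 CPM.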
